A study of Homo sapiens with 8 samples.

Results

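The transcripts described here encode the enzymes that the inhibitor CM272 was made against and 3 proteins that work with them in gene silencing. They were taken as the probe sets that the platform annotation assigns to EHMT2, EHMT1, DNMT1, UHRF1 or CBX3. Each symbol had 1 probe set, so the set holds 5 of the 48416 probe sets on the array and 5 of 14884 gene symbols, and all 5 were bright enough to be tested among 12239 genes. Human HepG2 cells, a hepatocellular carcinoma line, and LX2 cells, a line of hepatic stellate cells, were cultured for 48 h with CM272 at 400 nM or with its vehicle, DMSO at 0.1%. Treated and vehicle cells of each line made 4 groups of 2 arrays, called LX2 control and LX2 CM272, and HepG2 control and HepG2 CM272, below. The medium of all HepG2 samples held 10% serum and that of all LX2 samples 2%, so cell line and serum level cannot be told apart. Each line is a single established line, and 1 dose and 1 time were used. Nothing in the sources tells whether the paired arrays are of separate cultures, and p-values then measure the spread between these samples, which may be technical.

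G9a, the product of EHMT2, and GLP, the product of EHMT1, are paired histone methyltransferases that place mono- and dimethyl marks on lysine 9 of histone H3 (H3K9) in silent euchromatin. DNMT1 copies DNA methylation onto the new strand after replication. UHRF1 reads hemimethylated DNA and methylated H3K9 and brings DNMT1 to the replicated site. CBX3 encodes HP1 gamma, one of the heterochromatin protein 1 readers of methylated H3K9. An inhibitor that blocks the activity of an enzyme need not alter its mRNA, and the arrays measured only mRNA.

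The start sites of the 5 genes are shown so that the promoters of the genes that differ together between the lines, DNMT1 and UHRF1, can be set beside the others. Each line gives 100 bases before and 25 after a RefSeq start site on GRCh38.p14, read 5′ to 3′ on the gene's own strand. Capitals mark a match to the E2F consensus, the binding element of the factors that switch on S-phase genes. For UHRF1 the first of its 3 listed start sites is shown.
EHMT2, chr6:31897674-31897798, minus strand: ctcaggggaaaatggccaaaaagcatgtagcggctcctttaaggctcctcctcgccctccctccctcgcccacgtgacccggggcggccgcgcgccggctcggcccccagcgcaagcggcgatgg
EHMT1, chr9:137618905-137619029, plus strand: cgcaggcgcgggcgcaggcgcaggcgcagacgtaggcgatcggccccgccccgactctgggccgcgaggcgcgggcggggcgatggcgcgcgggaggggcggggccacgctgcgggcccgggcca
DNMT1, chr19:10194929-10195053, minus strand: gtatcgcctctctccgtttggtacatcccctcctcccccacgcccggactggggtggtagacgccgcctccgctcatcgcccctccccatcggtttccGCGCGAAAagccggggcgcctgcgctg
UHRF1, chr19:4909401-4909525, plus strand: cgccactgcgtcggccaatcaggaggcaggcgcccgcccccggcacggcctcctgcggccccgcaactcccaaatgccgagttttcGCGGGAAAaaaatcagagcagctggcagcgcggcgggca
CBX3, chr7:26201343-26201467, plus strand: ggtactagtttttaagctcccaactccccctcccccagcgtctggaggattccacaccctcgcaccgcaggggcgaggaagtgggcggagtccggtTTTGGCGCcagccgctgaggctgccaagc

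The search covered 250 bases before and 50 after each start, on both strands, for the 4 forms TTTCCCGC, TTTCGCGC, TTTGCCGC and TTTGGCGC. No other motif was searched, and this one was chosen after the promoters had been seen. DNMT1, UHRF1 and CBX3 held a match, and EHMT2 and EHMT1 held none. Over all 35116 RefSeq promoter windows of 300 bases, 1164 (3.31%) held one. The second UHRF1 window held a further match, TTTCGCGC, at positions -160 to -153 from that start. CpG, the substrate of DNMT1, numbered 25 in the EHMT2 window, 51 in EHMT1, 30 in DNMT1, 36 in the first UHRF1 window and 19 in CBX3, against a median of 14 over all windows. CBX3 was the lowest, and 57.1% of all windows held fewer CpG than it did. All 4 motif forms hold a CpG, and the 3.31% is not matched for CpG number. UHRF1 also had 3 windows in which to match. The share is therefore no test of these genes. A match is a description of the letters and does not show that a factor binds there.

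The lines carried the markers of their labels in part. All 10 hepatocyte markers with a symbol were higher in HepG2 control than in LX2 control, and of 5 tested stellate cell markers 4 were lower in HepG2 control, VIM by the most (10.2 and 10.2 in LX2 control against a mean of 3.67 in HepG2 control), then LOX (-2.47), TAGLN (-1.51) and THY1 (-1.32). DES went the other way without passing (0.34), and LRAT, a marker of quiescent stellate cells, was too dim to test (3.85 and 4.27 in LX2 control). The other 6 of 12 stellate markers had no symbol here. Replicate arrays correlated at 0.969 to 0.992 over genes, and the LX2 CM272 pair was the least alike, with a median absolute difference of 0.26 log2 between its arrays against 0.12 to 0.15 in the other groups. All values below are RMA log2 expression values as deposited, given as replicate 1 and replicate 2. A log2 difference of 1 is a doubling of signal, and levels are not compared between genes because each probe set has its own brightness.

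**Figure D1:**
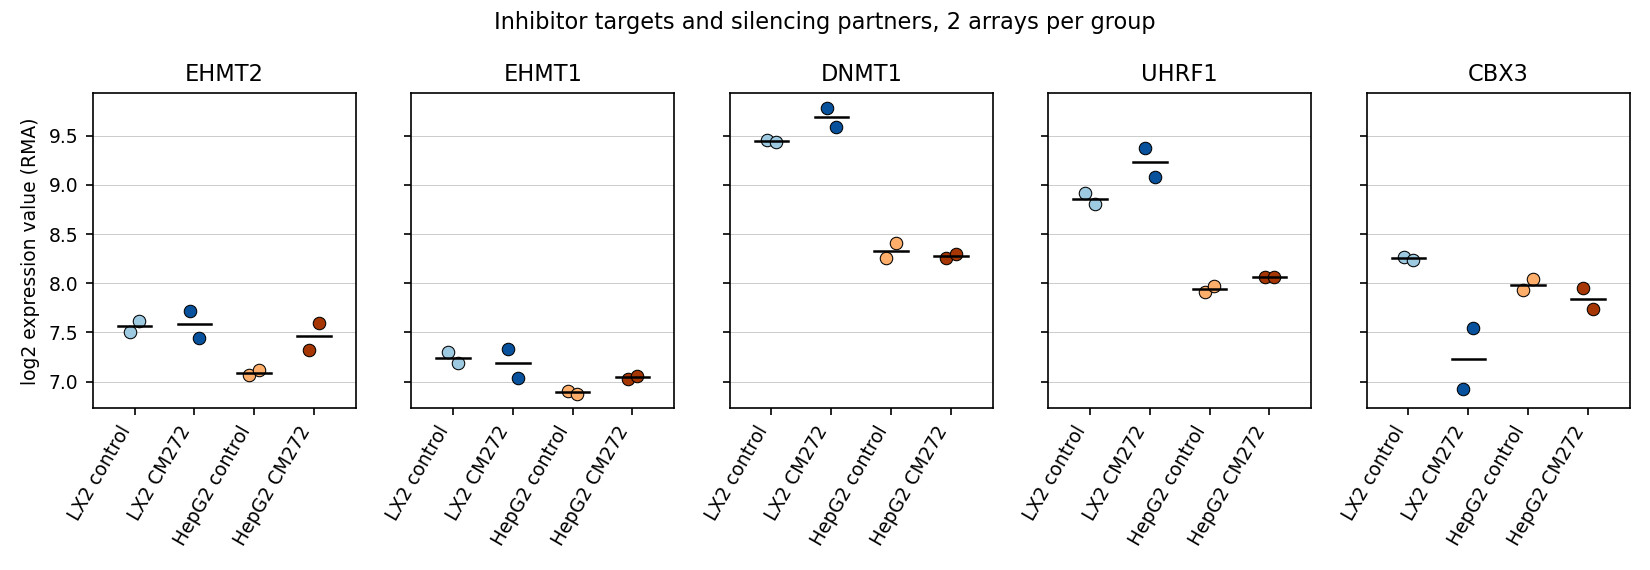
RMA log2 expression values (vertical axis) of EHMT2, EHMT1, DNMT1, UHRF1 and CBX3 in the 4 groups (horizontal axis), with 1 point per array and a bar at the mean of 2 arrays. DNMT1 and UHRF1 stand higher in all 4 LX2 arrays than in all 4 HepG2 arrays, and CBX3 is lowest in the 2 LX2 CM272 arrays. The share of all genes that separate the lines in this way was not computed. Between the untreated lines 58.1% of all tested genes were called. Heights are not comparable between panels.

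With CM272 the mRNA of CBX3, the HP1 gamma gene, fell 2.03-fold in LX2, and 1.75% of all tested genes differed there by more. The mRNAs of the enzymes themselves, EHMT2, EHMT1 and DNMT1, did not pass the test in either line, nor did that of UHRF1. Thus 1 of 5 was called in LX2, where 8.42% of all 12239 genes were called in either direction and 4.63% were called lower. In HepG2 0 of 5 were called, where 0.00817% of all genes, a single gene, passed, and 1 of the 5 had an unadjusted p under 0.05. All calls rest on limma with Benjamini-Hochberg adjustment over the 12239 genes and a threshold of 0.05.

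CBX3 (probe set 17044423) stood at 8.27 and 8.24 in LX2 control and at 6.93 and 7.54 in LX2 CM272. Both treated arrays lay below both control arrays, as they did for 28.6% of all tested genes. The treated arrays also lay 0.62 apart, against 0.03 for the controls. The difference was -1.02 (SE 0.20, 95% interval -1.46 to -0.57, n = 2 arrays per group), with an adjusted p = 0.0185 in limma. The call was lost without LX2 control replicate 1 (-1.01, adjusted p = 0.127 in limma), without LX2 control replicate 2 (-1.03, adjusted p = 0.142) and when LX2 was fitted without HepG2 (-1.02, adjusted p = 0.0699). Without LX2 CM272 replicate 1 the fall was 0.71, and without LX2 CM272 replicate 2 it was 1.33; both passed.

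In HepG2, CBX3 read 7.93 and 8.04 in control cells and 7.96 and 7.73 with CM272. These arrays overlapped, and the difference of -0.14 (95% interval -0.59 to 0.31, adjusted p = 0.850 in limma) did not pass. The HepG2 change minus the LX2 change was 0.88 (SE 0.28, 95% interval 0.25 to 1.51), with an unadjusted p = 0.0115 in limma and an adjusted p = 0.15, so the CBX3 response was not shown to differ between the lines. Of the 5 genes, 0 were called in that comparison of lines, where 1.18% of all genes were called. The difference did pass without LX2 CM272 replicate 2 (1.19, adjusted p = 0.0265 in limma) and was 0.57 without LX2 CM272 replicate 1.

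EHMT2 (probe set 17017536), which encodes the target G9a, gave 7.51 and 7.62 in LX2 control and 7.72 and 7.44 in LX2 CM272. The treated arrays lay on either side of the controls. The difference was 0.02 (95% interval -0.33 to 0.37, adjusted p = 0.954 in limma). In HepG2 it gave 7.07 and 7.12 in control cells and 7.32 and 7.60 with CM272, so both treated arrays were above both controls, as for 20.7% of all genes. That difference of 0.37 (SE 0.16, 95% interval 0.01 to 0.72) had an unadjusted p = 0.0439 in limma and did not pass after adjustment (adjusted p = 0.418). The contrast of the 2 changes was 0.35 (95% interval -0.15 to 0.85, adjusted p = 0.464 in limma).

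EHMT1 (probe set 17091769), the GLP gene, read 7.30 and 7.19 in LX2 control and 7.33 and 7.04 in LX2 CM272, again with overlap. The difference was -0.06 (95% interval -0.39 to 0.27, adjusted p = 0.847 in limma). In HepG2 the controls were at 6.91 and 6.88 and the treated arrays at 7.03 and 7.06. Both treated arrays lay above both controls, as for 20.7% of all genes. The difference of 0.15 (95% interval -0.18 to 0.48, adjusted p = 0.762 in limma) did not pass.

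DNMT1 (probe set 16868576), the other target, read 9.46 and 9.44 in LX2 control and 9.78 and 9.59 in LX2 CM272. Both treated arrays lay above both controls, as they did for 23.5% of all genes in LX2. The difference of 0.24 (95% interval -0.07 to 0.55, adjusted p = 0.323 in limma) did not pass. In HepG2 the values were 8.26 and 8.41 in control cells and 8.26 and 8.30 with CM272, a difference of -0.05 (95% interval -0.37 to 0.26, adjusted p = 0.927 in limma). The contrast of the 2 changes was -0.29 (95% interval -0.73 to 0.15).

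UHRF1 (probe set 16857258), the partner that brings DNMT1 to DNA, read 8.91 and 8.81 in LX2 control and 9.38 and 9.08 in LX2 CM272. Its treated arrays too lay above the controls, as for 23.5% of all genes in LX2. The difference was 0.37 (SE 0.15, 95% interval 0.04 to 0.70), with an unadjusted p = 0.0325 and an adjusted p = 0.155 in limma. Without LX2 CM272 replicate 2 it was 0.52 and passed (adjusted p = 0.0325 in limma). HepG2 gave 7.91 and 7.97 in control cells and 8.06 and 8.06 with CM272, a difference of 0.12 (95% interval -0.21 to 0.45, adjusted p = 0.815 in limma).

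**Figure D2:**
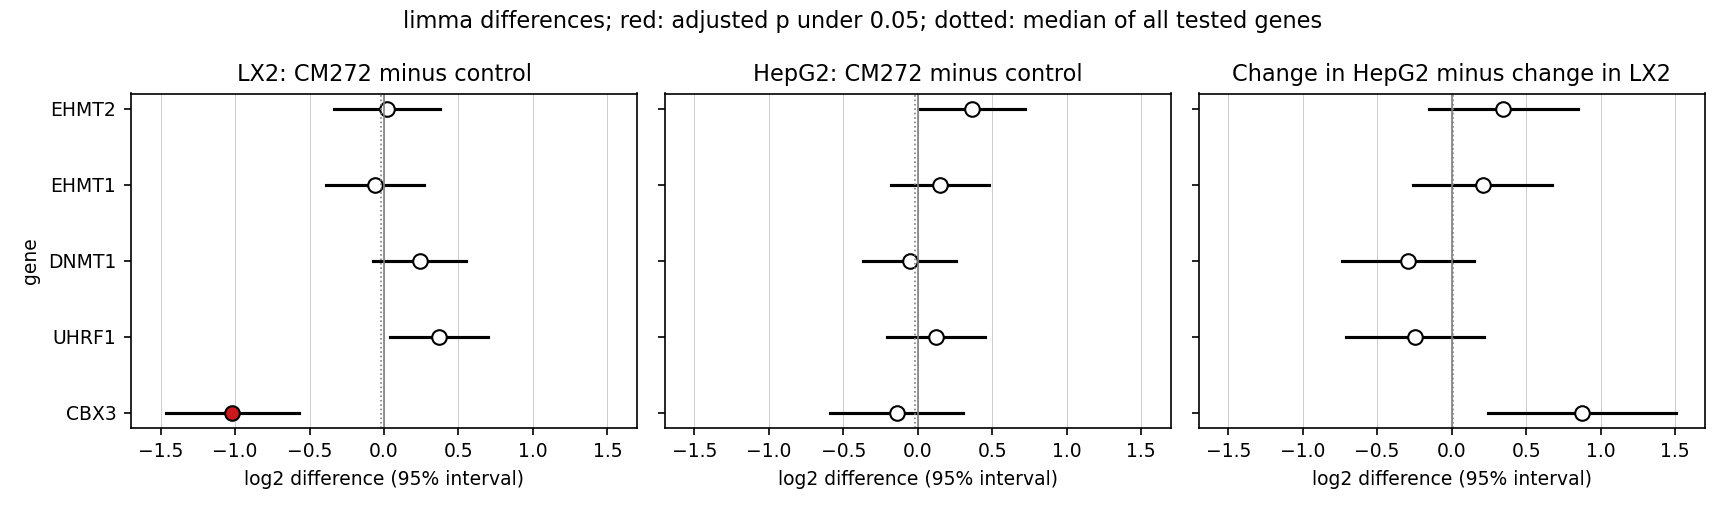
Differences in log2 expression (horizontal axis) with their 95% intervals from limma for the 5 genes, for CM272 minus control in LX2, the same in HepG2, and the HepG2 change minus the LX2 change. The CBX3 difference in LX2, -1.02, is the one filled red for an adjusted p under 0.05. The dotted line is the median of all tested genes.

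DNMT1 and UHRF1, the pair that maintains DNA methylation, were lower in untreated HepG2 than in untreated LX2. Of the 5 genes 3 were called lower in HepG2 control than in LX2 control, where 58.1% of all genes were called, 40.5% lower and 17.7% higher. DNMT1 was lower by 1.11 (a difference of -1.11, SE 0.14, 95% interval -1.43 to -0.80, 2.16-fold, adjusted p = 8.73e-05 in limma). UHRF1 was lower as well (-0.92, SE 0.15, 95% interval -1.25 to -0.59, 1.89-fold, adjusted p = 4.43e-04 in limma). The EHMT2 difference of -0.47 (SE 0.16) passed too, with an adjusted p = 0.0277 in limma. EHMT1 at -0.35 (adjusted p = 0.0653 in limma) and CBX3 at -0.27 (adjusted p = 0.272) did not pass. EHMT1 did pass, at the same -0.35, without LX2 CM272 replicate 1 or LX2 CM272 replicate 2 (adjusted p = 0.0197 and 0.0201 in limma), arrays that enter this comparison only through the estimate of spread.

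These differences stand against a shift of all genes. The median tested gene was -0.27 in HepG2 control minus LX2 control, and quantile normalization over the 8 arrays moved that median by 0.26 to -0.01. Relative to the median of all genes DNMT1 was at -0.84, UHRF1 at -0.65, EHMT2 at -0.20, EHMT1 at -0.08 and CBX3 at 0.00. After quantile normalization the EHMT2 difference was -0.20 and no longer passed (adjusted p = 0.347 in limma), and over all genes the calls moved from 2161 higher and 4952 lower (30.4% higher) to 3206 higher and 3573 lower (47.3% higher). The EHMT2 call was also lost without any 1 of the 4 control arrays, where the difference ran from -0.52 to -0.42. DNMT1 and UHRF1 passed in all 15 alternatives run for this comparison.

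The order of the 4 groups differed from gene to gene. UHRF1 ran from LX2 CM272 through LX2 control and HepG2 CM272 down to HepG2 control, with no overlap between neighbours. Treated arrays lay above controls without overlap for 23.5% of all genes in LX2 and 20.7% in HepG2. The share of genes without overlap between lines was not computed. DNMT1 had the same LX2 groups at the top, and its HepG2 groups overlapped. For EHMT2 and EHMT1 both LX2 groups and HepG2 CM272 overlapped with their neighbours, and HepG2 control stood lowest without overlap. For CBX3 the order was LX2 control, then the overlapping HepG2 groups, then LX2 CM272. Its difference between the control groups, -0.27, did not pass and was 0.00 relative to the median of all genes.

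Pooled over both lines the arrays of DNMT1 and UHRF1 varied alike, but in HepG2 with CM272 they did not. There the CM272 arrays lay at -0.08 and -0.03 from the control mean for DNMT1. They lay at 0.12 and 0.12 for UHRF1 and at -0.03 and -0.25 for CBX3. After each line's mean was subtracted, the correlation over the 8 arrays was 0.86 for DNMT1 with UHRF1 and 0.71 for EHMT2 with EHMT1. It was -0.94 for UHRF1 with CBX3 and -0.86 for DNMT1 with CBX3. These 8 points share their treatment groups, so the values describe the pattern and were not tested. Over all genes the closest patterns to CBX3 were those of SKA1 (r = 0.998), NEK9 (0.99) and TFG (0.99). High values were not particular to the genes named. Above 0.95 lay 190 genes for CBX3, 49 for UHRF1, 23 for DNMT1, 17 for EHMT2 and 9 for EHMT1. SKA1, a kinetochore gene, fell by 0.98 in LX2 with CM272 (adjusted p = 0.0196 in limma), and NEK9 (-0.52) and TFG (-0.29) did not pass. Closest to UHRF1 were TIMP3, GRIP2 and RPS27 (0.99 each), and closest to DNMT1 were PER1 (0.99), LAPTM5 (0.99) and MAF1 (0.98). EHMT2 was nearest to GLYCTK, SORBS2 and ACACB (0.98 each), and EHMT1 to DOK4 (0.99), LMNB2 (0.99) and ZNF618 (0.97).

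Genes that lie next to the 5 on the chromosome gave a local comparison. HNRNPA2B1, an RNA-binding protein gene beside CBX3, read 8.84 and 8.80 in LX2 control and 8.11 and 8.62 in LX2 CM272. Its treated arrays were below the controls, as for 28.6% of all tested genes. The difference of -0.46 (SE 0.17, adjusted p = 0.140 in limma) did not pass. SKAP2, the nearest measured gene on the other side, differed by -0.10. NEU1, the sialidase gene that is the nearest measured neighbour of EHMT2 on one side, rose by 0.83 in LX2 (SE 0.16, adjusted p = 0.0198 in limma), while C2 on the other side differed by 0.23. The measured neighbours of EHMT1 (ARRDC1, 0.13), DNMT1 (ANGPTL6, 0.19, and S1PR2, -0.06) and UHRF1 (ARRDC5, 0.08, and KDM4B, 0.18) did not pass in LX2. CBX3 has a processed copy, CBX3P2, whose probe set was dim in all groups (3.11 to 3.51 in LX2 and 3.81 to 4.10 in HepG2) and was not tested.

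Among the genes of the same pathways, those that work with DNMT1, read methylated DNA or build heterochromatin held most of the falls in LX2. The 11 lists together named 132 genes, of which 97 were tested, the 5 included. With CM272 in LX2 9 of the 97 fell (9.28%) and 2 rose (2.06%), against 4.63% lower and 3.79% higher over all genes, and the median was -0.09 against -0.02 over all genes. In HepG2 0 of the 97 passed in limma (6 had an unadjusted p under 0.05), and in the contrast of the 2 changes 0 passed (13 had an unadjusted p under 0.05). All 9 falls and both rises were lost without either LX2 control array, and 19 fell and 6 rose without LX2 CM272 replicate 2.

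**Figure D3:**
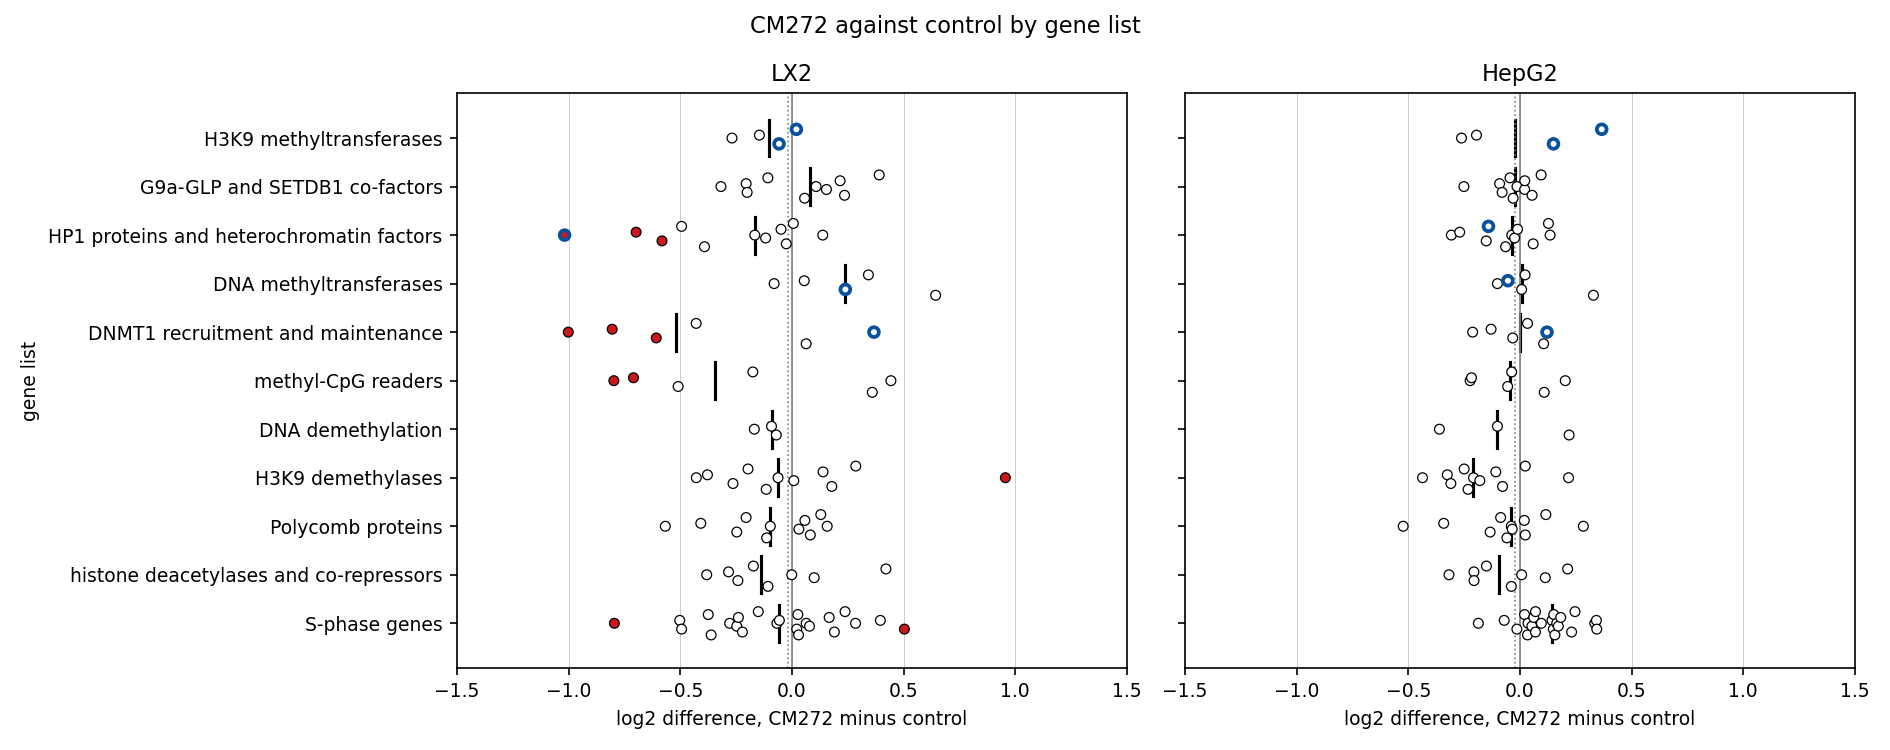
Differences in log2 expression, CM272 minus control (horizontal axis), for the tested genes of each list in LX2 and in HepG2. Red points have an adjusted p under 0.05 in limma, blue rings mark the 5 genes, black bars are list medians and the dotted line is the median of all tested genes. Of 97 genes 9 are red and lower in LX2 and 0 are red in HepG2.

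DNMT1 recruitment and maintenance factors had 3 of 6 lower in LX2 and a median of -0.52. CDCA7L stood at 7.48 and 7.49 in LX2 control and 6.26 and 6.70 with CM272, a fall with a difference of -1.0 (SE 0.17, adjusted p = 0.0117 in limma). Its relative CDCA7, which targets the remodeler HELLS to chromatin and is needed to maintain DNA methylation, stood at 7.14 and 7.06 against 6.39 and 6.20 and fell by 0.81 (SE 0.14). USP7, a deubiquitinase that binds DNMT1 and UHRF1, stood at 9.17 and 9.11 against 8.51 and 8.55 and fell by 0.61 (SE 0.13), a call lost without a control array of either line (-0.64 to -0.58). In all 3 both treated arrays lay below both controls, as for 28.6% of all tested genes. The 3 were named because they passed, so this is no separate result. UHRF1 belongs to this list and PCNA, the replication clamp that binds DNMT1, differed by 0.06. In HepG2 the same genes gave 0.11 for CDCA7L, -0.13 for CDCA7 and -0.21 for USP7, none of which passed.

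Readers of methylated CpG had 2 of 6 lower in LX2, beside 4.63% over all genes, and a median of -0.34. Of the 6, 4 lay below 0 and 2 above, and those 2 did not pass. MBD1 read 8.10 and 8.07 in LX2 control and 8.63 and 8.42 with CM272, a difference of 0.44. ZBTB4 read 7.80 and 7.75 against 8.33 and 7.94. In both the treated arrays lay above the controls, as for 23.5% of all genes. ZBTB33, which encodes the methyl-CpG repressor Kaiso, read 6.74 and 6.69 in LX2 control and 5.85 and 5.99 with CM272, a fall of 0.80 (SE 0.13, adjusted p = 0.0108 in limma). ZBTB38, a relative of Kaiso, read 7.76 and 7.78 against 6.99 and 7.14, a fall of 0.71 (SE 0.13). In HepG2 ZBTB33 differed by 0.11 and ZBTB38 by -0.05. The contrast of the 2 changes in ZBTB33 was 0.91 (SE 0.19, adjusted p = 0.0544 in limma), which passed in 4 of 15 alternatives.

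HP1 proteins and heterochromatin factors had 3 of 11 lower in LX2, CBX3 among them, and a median of -0.17. LBR, the inner nuclear membrane receptor that binds HP1 and lamin B, read 8.16 and 8.24 in LX2 control and 7.33 and 7.68 with CM272, a fall of 0.70 (SE 0.16, adjusted p = 0.0332 in limma). LMNB1, lamin B1, read 9.39 and 9.39 against 8.78 and 8.83, a fall of 0.58 (SE 0.13). The LBR call was lost on leaving out any 1 array other than LX2 CM272 replicate 2 (-0.87 to -0.52 over the 8 omissions), and the LMNB1 call on leaving out a control array of either line (-0.61 to -0.56). The other HP1 genes did not pass. CBX1, HP1 beta, differed by -0.05 in LX2 (95% interval -0.39 to 0.29), with a sign that turned under quantile normalization (0.05), and CBX5, HP1 alpha, by -0.03 (95% interval -0.34 to 0.29), turning to 0.07.

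Among the targets and the enzymes related to them nothing passed in LX2. Of 4 measured H3K9 methyltransferases, EHMT2 and EHMT1 among them, 0 were called, none at an unadjusted p under 0.05. SUV39H2 was at -0.27 and SUV39H1 at -0.15. Of 5 DNA methyltransferases, DNMT1 among them, 0 were called in limma (1 at an unadjusted p under 0.05), and 4 of the 5 lay above 0. TRDMT1, which methylates transfer RNA, differed by 0.64 (adjusted p = 0.0787), and DNMT3L, a catalytically inactive partner of the de novo enzymes, by 0.34. DNMT3A and DNMT3B, the de novo enzymes, differed by -0.08 and 0.05 in LX2 and by 0.33 and -0.10 in HepG2. The co-factors of the G9a-GLP and SETDB1 complexes had 0 of 10 called (2 at an unadjusted p under 0.05) and a median of 0.08. WIZ, a zinc finger partner of G9a and GLP, was at 0.39 (adjusted p = 0.144 in limma), and ZNF644, another, at -0.32.

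The erasers and the other silencing systems had 1 call in LX2. Of 11 H3K9 demethylases 1 rose in LX2, KDM7A, from 4.20 and 4.43 to 4.86 and 5.67, by 0.96 (SE 0.24, adjusted p = 0.0422 in limma). The control values lie near the filter of 4. Of the 8 omissions of 1 array, the KDM7A call held without LX2 CM272 replicate 1 (1.36) and was lost in the other 7 (0.55 without LX2 CM272 replicate 2). Of 3 DNA demethylation genes 0 passed (0 at an unadjusted p under 0.05), with TET2 at -0.17. Of 11 Polycomb genes 0 passed in limma (2 at an unadjusted p under 0.05), with SUZ12 at -0.57 and EZH1 at -0.41. Of 8 histone deacetylase and co-repressor genes 0 passed (2 at an unadjusted p under 0.05), with SIN3B at 0.42 and HDAC1 at -0.38.

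Genes of DNA replication were examined because DNMT1 and UHRF1 mRNA rise in dividing cells. In LX2 with CM272 1 of 23 S-phase genes fell and 1 rose, with a median of -0.06. GINS1, a subunit of the replicative helicase complex, read 8.58 and 8.61 in LX2 control and 7.65 and 7.96 with CM272, a fall of 0.80 (SE 0.15, adjusted p = 0.0172 in limma). CDC45, its partner in that complex, read 7.43 and 7.43 against 7.92 and 7.96, a rise of 0.50 (SE 0.13, adjusted p = 0.0441) that held in 5 of 16 alternatives, and among the omissions of 1 array without LX2 CM272 replicate 2 (0.48). In HepG2 20 of the 23 lay above 0, the median was 0.14 and 0 passed in limma (1 at an unadjusted p under 0.05). The median of all tested genes there was -0.02. The share of all genes above 0 was not computed, so the count is a description only.

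**Figure D4:**
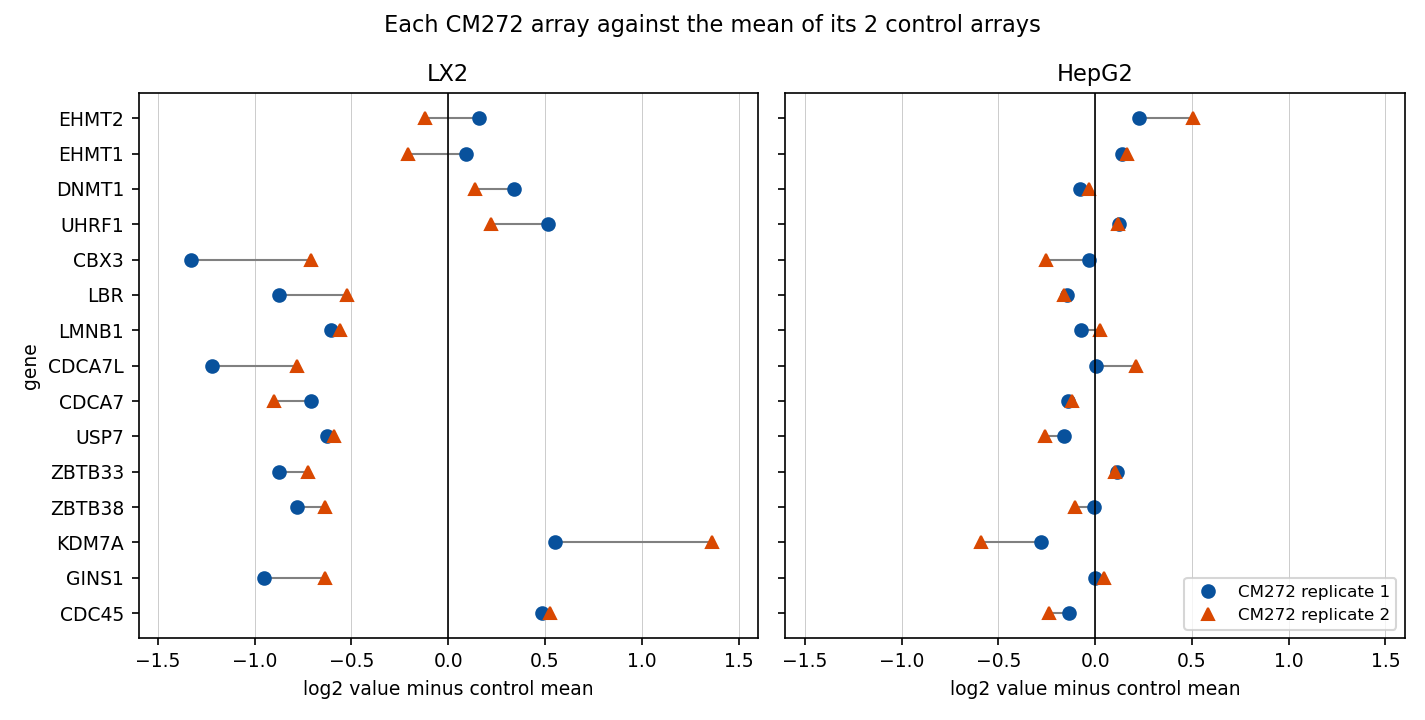
For each gene named on the vertical axis, the log2 value of each CM272 array minus the mean of the 2 control arrays of its line (horizontal axis), in LX2 and in HepG2. Circles are CM272 replicate 1 and triangles CM272 replicate 2. In LX2 the CBX3 arrays lie at -1.33 and -0.71, and EHMT2 and EHMT1 have one array on each side of 0.

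Between the untreated lines the S-phase genes lay with DNMT1 and UHRF1. Of 23 S-phase genes 20 were lower in HepG2 control and 1 was higher, beside 40.5% lower and 17.7% higher over all genes. Their median was -1.32 against -0.27 over all genes. CCNE2, cyclin E2, differed by -2.81, the proliferation marker MKI67 by -2.12 and the helicase subunit MCM5 by -1.51. Over all 97 genes of the lists 59 were lower and 10 higher (71.1% called, against 58.1% of all genes). Of those 69, 1 called higher was under the filter in LX2 control and 1 called lower was under it in HepG2 control. The part of cell cycle position or serum level in the DNMT1 and UHRF1 difference was not tested.

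Partners of the 5 genes also differed between the untreated lines, in both directions. Both other HP1 genes were lower in HepG2 control, CBX5 by a difference of -2.15 (SE 0.14) and CBX1 by -1.91 (SE 0.15), whereas CBX3 did not pass. ATRX, a remodeler of heterochromatin, read 7.40 and 7.17 in HepG2 control and 2.50 and 2.49 in LX2 control, under the filter of 4, so that it was tested only through HepG2 and no size is given for its difference. KDM7A was higher in HepG2 control too (4.35, SE 0.24). Its LX2 control mean of 4.31 lay near the filter of 4, so the size is uncertain. SUV39H1 was lower (-1.05, SE 0.13), as was ATF7IP, the stabilising partner of SETDB1 (-2.94, SE 0.16), and CDCA7L (-2.71, SE 0.17). USP7 was higher (1.16, SE 0.13). The de novo enzymes ran opposite to DNMT1, with DNMT3B at 0.61 (SE 0.14) and DNMT3A at 0.53 (SE 0.14), both higher in HepG2 control. The DNMT3A call was lost without LX2 control replicate 2 (0.46) and without HepG2 control replicate 2 (0.44). Beside 40.5% lower and 17.7% higher over all genes, Polycomb genes had 8 of 11 lower and 0 higher, and methyl-CpG readers 5 of 6 lower and 1 higher, ZBTB33 (0.44, SE 0.13). The ZBTB33 call was lost without any 1 of the 4 control arrays (0.41 to 0.46).

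**Figure D5:**
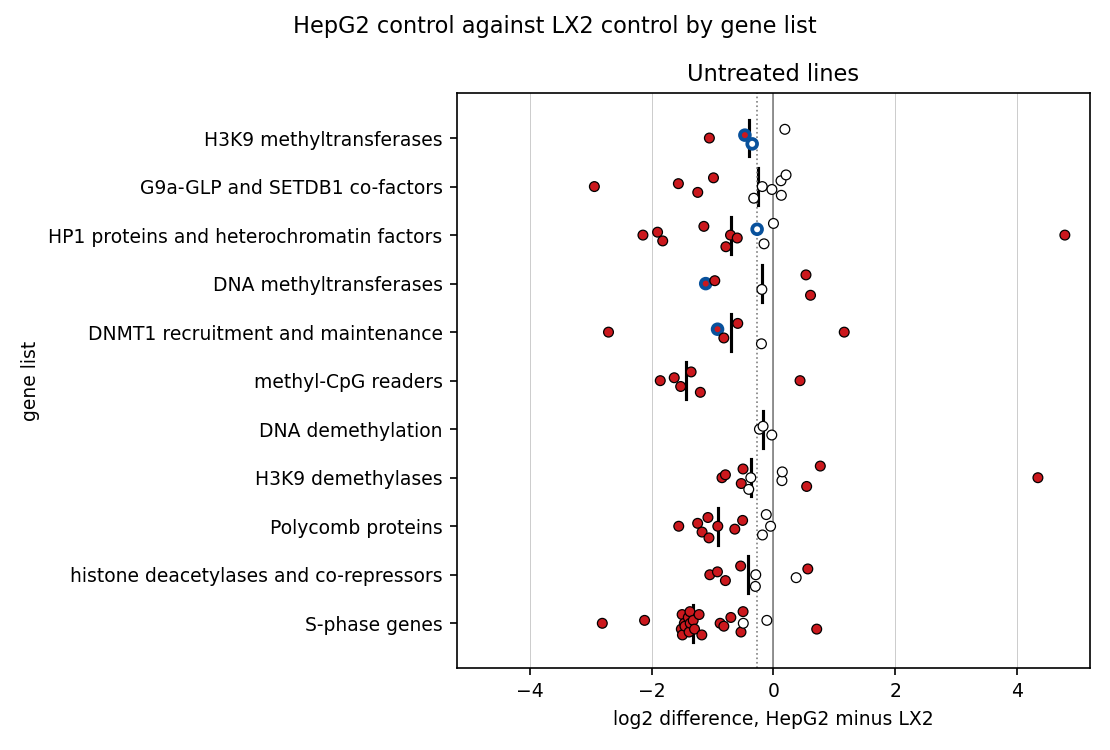
Differences in log2 expression, HepG2 control minus LX2 control (horizontal axis), for the tested genes of each list. Red points have an adjusted p under 0.05 in limma, blue rings mark the 5 genes, black bars are list medians and the dotted line is the median of all tested genes, -0.27. The S-phase genes have a median of -1.32, and KDM7A stands at 4.35 with an LX2 control mean of 4.31, near the filter of 4. The point farthest to the right is ATRX, whose LX2 control arrays lie under the filter of 4, so that its position is no measured size.

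Genes on the stellate marker list also moved in LX2 with CM272. DES, among them, was no higher in LX2 control (5.97 and 5.18) than in HepG2 control (6.03 and 5.80). Of 5 tested stellate cell markers DES, desmin, rose by 1.25 (SE 0.28) and the collagen cross-linker LOX fell by 1.01 (SE 0.15), while VIM, TAGLN and THY1 did not pass. Both calls were lost without LX2 control replicate 2 (0.86 for DES and -0.92 for LOX), that of LOX also without LX2 control replicate 1 (-1.10) and that of DES without LX2 CM272 replicate 2 (difference of 1.0), with array weights and with each line fitted alone. Of 10 hepatocyte markers 0 passed in limma in LX2 (3 at an unadjusted p under 0.05), and of 4 tested leukocyte and endothelial markers 0 passed (0 at an unadjusted p under 0.05). Their part in the CBX3 result was not tested.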

How the data were processed

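Total RNA of 8 samples was hybridised to Affymetrix whole-transcript arrays, 1 array per sample, after amplification of 300 ng per the labels' protocols. The deposited values are log2 expression values that the authors made with RMA, per the submitters' processing notes; no version and no genome build of the array were given in the sources used here, so neighbours of a gene were taken from the order of genes in RefSeq on GRCh38.p14 with no coordinates printed. RMA normalizes between arrays, which can remove part of a shift shared by most genes, and it understates folds of dim genes. The deposited arrays did not share 1 distribution, with medians of 4.42 to 4.54 in LX2 and 4.19 to 4.25 in HepG2. Arrays give no counts, and 2 arrays per group limit the precision.

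Of 48416 probe sets 16098 had 1 gene symbol, and 32318 had none in the annotation used. SETDB1 and UHRF2 had no probe set with a symbol. The probe set with the highest mean was kept for each symbol, and a gene was tested where some group had both arrays above a log2 of 4, which 12239 genes met. One limma 3.58.1 fit (R 4.3.3) with a mean per group over all 8 arrays gave every comparison, two-sided, with Benjamini-Hochberg adjustment over all 12239 genes. An exact permutation test of 2 against 2 arrays cannot go below a p of 0.333. The fit was tested on simulated data. The members and gene lists were chosen with earlier results of these data known. Named genes were the 5 and up to 3 others past the threshold per list and comparison (or up to 2 as values). The nearest relatives, the 3 most correlated genes and the measured neighbours were named too. CBX3P2, PCNA, VIM, TAGLN, THY1, LRAT, DES, LOX, MBD1 and, in LX2, ZBTB4 were added after their values were seen. Promoters were read from RefSeq with all 5 symbols matched. Alternatives were no filter, a filter at 6, quantile normalization, array weights, a replicate block, single probe sets, a variance trend, each line alone and leaving out each array. Figures were drawn with matplotlib 3.10.9.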

Additional observations from a re-analysis of the deposited data

Results flagged for a closer look

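LOX, which encodes lysyl oxidase and was measured here as a stellate cell marker, passed the test of the difference between the 2 lines. It fell by 1.01 in LX2 with CM272 and differed by 0.16 in HepG2, and the HepG2 change minus the LX2 change was 1.17 (SE 0.21, adjusted p = 0.0367 in limma). The call was lost in 6 of 8 omissions of 1 array: without LX2 control replicate 1 (1.26) or 2 (1.08), HepG2 control replicate 1 (1.16) or 2 (1.17), and HepG2 CM272 replicate 1 (1.30) or 2 (1.04). It was also lost with no filter and with array weights (adjusted p = 0.0596 and 0.0535 in limma, over a range of 0.0128 to 0.208 across all alternatives). None of the 5 genes and none of the 97 tested genes of the lists passed that comparison in limma, although 13 of the 97 had an unadjusted p under 0.05.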

How the results depend on the processing

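Most values for the 5 genes kept their side of the threshold under the 8 processing alternatives and the omission of each array in turn. Most also kept their direction, but only quantile normalization and the omissions could change it. The other alternatives leave the differences of these genes as they are and change their error or the genes tested. Where 1 array of a group is left, it is assumed to vary like the other groups. With single probe sets no call or direction among the values computed changed and no count moved by over 1.5 times. Quantile normalization over 8 arrays turned DNMT1 in HepG2 to 0.032, EHMT1 in LX2 to 0.018, CBX1 and CBX5 in LX2 to 0.054 and 0.072, LMNB1 in HepG2 to 0.059, and CDCA7 and LBR between the untreated lines to 0.074 and 0.11, all uncalled, and moved EHMT2 between the untreated lines to -0.20, no longer past the threshold. EHMT1 between the untreated lines passed at the same -0.35 with a filter at log2 6 (adjusted p = 0.0391 in limma), array weights (0.0150) and a variance trend (0.0453). With each line fitted alone CBX3 in LX2 stayed at -1.02 without passing, so 0 of the 5 genes were called there.

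The numbers of called genes moved more. The contrast of the 2 changes called 79 genes with no filter, 371 with a filter at log2 6 and 291 with a variance trend, against 145. In HepG2 2, 4, 5 and 4 genes were called with no filter, a filter at log2 6, array weights and a variance trend, against 1. In LX2 283 were called with array weights and 207 with each line alone, against 1031. The share of higher calls in LX2, 45.0%, went to 33.5% with a filter at log2 6 and to 65.7% with each line alone. Without LX2 control replicate 1 the calls turned from mostly lower to mostly higher (81 higher and 16 lower, 83.5% higher), and without LX2 control replicate 2 likewise (50 and 5, 90.9% higher). Of the list genes in LX2, those called higher numbered 0 with no filter, 1 with quantile normalization, 0 with array weights and 0 with each line alone, against 2, and those called lower 14 with a filter at log2 6, 5 with array weights, 15 with a variance trend and 0 with each line alone, against 9. In the contrast of the 2 changes 5 list genes were called with a filter at log2 6 and 3 with a variance trend, against 0. The cause of these moves was not tested.

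Leaving out 1 array at a time gave -1.33 to -0.71 for CBX3 in LX2, 0.57 to 1.19 for its contrast between lines, 0.22 to 0.52 for UHRF1 in LX2, -0.12 to 0.16 for EHMT2 and -0.21 to 0.091 for EHMT1 in LX2, -0.13 to 0.018 for DNMT1 in HepG2, and -0.52 to -0.42 for EHMT2 and -0.40 to -0.30 for EHMT1 between the untreated lines. DNMT3B in LX2 ran from -0.0054 to 0.11, CBX1 from -0.19 to 0.089 and CBX5 from -0.12 to 0.071, and in HepG2 GINS1 ran from -0.059 to 0.10 and LMNB1 from -0.075 to 0.027, all uncalled. DES, uncalled as well, ran from -0.038 to 0.47 in HepG2 with CM272 and from -0.056 to 0.73 between the untreated lines. Genes called ranged from 55 to 2496 in LX2, 0 to 1 in HepG2 and 18 to 918 in the contrast. The 5 genes gave 0 to 2 calls in LX2 and 0 to 1 in the contrast, and the list genes 0 to 6 higher and 0 to 19 lower in LX2 and 0 to 7 in the contrast. The lowest LX2 counts came without an LX2 control array and the highest without LX2 CM272 replicate 2.

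With the replicate number as a block CBX3 in LX2 kept its call (-1.02, adjusted p = 0.0235 in limma) and 1 list gene instead of 2 was called higher there. Arrays of the same number deviated together only weakly (r = 0.08 in LX2 and 0.07 in HepG2), so the numbers were not taken as pairs. The 95% intervals, given for part of the values, rest on 2 arrays per group and are not adjusted for the number of genes. They therefore do not show what size of difference would have been called.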
